A study of Mus musculus with 64 samples.

Results

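The nuclear-encoded subunit genes of respiratory complex I were the protein-coding mouse genes whose symbol is Nduf followed by a, b, c, s or v and a number, plus Ndufab1, with at least 10 counts in 7 or more libraries. The assembly factors with symbols in Ndufaf were not included. All 37 matching genes passed the minimum, among 55401 gene identifiers in the count table, 21897 matched protein-coding genes and 15644 genes of any kind that reached the same minimum. Each of the 37 held at least 10 counts in all 63 libraries used, so none entered through one group alone.

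Complex I, NADH:ubiquinone oxidoreductase, takes electrons from NADH at the tip of its matrix arm, passes them along a chain of iron-sulfur clusters to ubiquinone, and pumps protons through its membrane arm. The matrix arm is built from an N module, which binds NADH, and a Q module, which reduces ubiquinone, and the membrane arm has a proximal and a distal part. The conserved core subunits of the matrix arm are nuclear-encoded, those of the membrane arm are encoded in mitochondrial DNA, and the remaining nuclear subunits are accessory. Skeletal muscle fibers rely on the complex for oxidative ATP production, and HIF1α is known as a regulator that shifts cells toward glycolysis under low oxygen.

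RNA was sequenced from the gastrocnemius, a calf muscle, of 64 mice. Each of the 8 groups was labelled with 8 animals, 4 of either sex. HIF1α KO mice carried Hif1a fl/fl, in which exon 2 is flanked by loxP sites, together with the transgene HSA-Cre +/-, whose human skeletal actin promoter drives Cre in skeletal muscle fibers, so other cells of the muscle keep the gene. The control fl/fl mice were littermates with the same floxed allele and no Cre, and no group with Cre and a wild-type Hif1a was compared. Both genotypes were 12 to 18 weeks old, had been crossed to C57BL/6JBomTac for 2 to 9 generations, and were studied at ZT3, in the light phase, or at ZT15, in the dark phase. Exercised mice ran on a treadmill for 60 min, at 16 m/min and 5% incline as labelled. By the study's methods, sedentary mice spent that time on a mock treadmill. Muscle was collected 3 h after the run. ZT3 and ZT15 are thus the times of the run or mock run, and collection came later in each phase.

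Total counts ranged from 2359780 to 40377963 with a median of 16236352, and the library of mouse 44 (HIF1α KO, ZT3, exercised), with 382 counts, was left out, which left 7 mice in its group. Levels are given as CPM, counts scaled to a common library total with TMM factors. Muscle fiber markers summed to between 78260 and 149603 CPM in every library. Hif1a stood at a mean of 36.4 CPM in both genotypes, which checks nothing, because whole-gene counts include the exons outside the floxed one. The study reported fewer Hif1a transcripts in HIF1α KO than fl/fl mice in another muscle, the quadriceps. Mouse 22 (fl/fl, ZT3, sedentary, female) and mouse 25 (HIF1α KO, ZT15, sedentary, male) lay apart from their groups in members described below, and results that moved without them are given both ways. The share of counts on the mitochondrial ribosomal RNAs mt-Rnr1 and mt-Rnr2 ranged from 0.712% to 11.6% and is set beside the results it moved with.

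The position of each member follows its place in the complex: 10 genes of the N module, 6 of the Q module, 9 of the proximal and 11 of the distal membrane arm, and Ndufa4, which was first assigned to complex I and is now counted with complex IV. The 7 core members include Ndufv1, Ndufv2 and Ndufs1 in the N module and Ndufs3, Ndufs7 and Ndufs8 in the Q module. Ndufb1 has no protein-coding entry in the annotation, and its locus appears as Ndufb1-ps, a noncoding gene at 80.4 ± 26.2 CPM (SD, n = 32) in fl/fl and 89.2 ± 22.6 CPM (SD, n = 31) in HIF1α KO mice. Of the 37 members, 19 overlap another annotated gene, among them Ndufs3 with Kbtbd4 and Ndufb5 with Mrpl47 on the opposite strand, and because the strand setting of the counting is not given in the sources used here, reads of the overlapped parts cannot be told apart.

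The promoters of the 4 members with the smallest p in the genotype comparison are shown because these genes head the result that the text turns on. Each window runs from 250 bases before to 50 bases after the RefSeq transcription start on GRCm38.p6, read on the gene's strand: Ndufs3 at chr2:90904672-90904971 (minus), Ndufs7 at chr10:80249199-80249498 (plus), Ndufb5 at chr3:32736813-32737112 (plus) and Ndufv1 at chr19:4012706-4013005 (minus). Capitals mark matches, on either strand, to 6 letter strings: GCATGCG (NRF1), CCGGAAG (ETS factors such as GABP), AAGGTCA (estrogen-related receptors), AAGATGG (YY1), ACGTG (the core of a hypoxia response element) and CACGTG (an E-box, which contains ACGTG).
Ndufs3: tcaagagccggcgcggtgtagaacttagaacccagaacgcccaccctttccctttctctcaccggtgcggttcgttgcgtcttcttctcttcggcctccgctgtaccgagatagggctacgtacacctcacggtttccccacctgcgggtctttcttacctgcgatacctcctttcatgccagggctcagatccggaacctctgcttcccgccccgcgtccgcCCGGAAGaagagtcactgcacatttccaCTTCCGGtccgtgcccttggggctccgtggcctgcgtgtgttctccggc
Ndufs7: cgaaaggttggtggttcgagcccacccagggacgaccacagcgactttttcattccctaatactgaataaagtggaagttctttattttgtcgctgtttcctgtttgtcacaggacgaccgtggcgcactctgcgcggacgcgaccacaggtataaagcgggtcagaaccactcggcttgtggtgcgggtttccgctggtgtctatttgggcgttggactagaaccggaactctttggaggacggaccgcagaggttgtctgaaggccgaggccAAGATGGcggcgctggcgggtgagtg
Ndufb5: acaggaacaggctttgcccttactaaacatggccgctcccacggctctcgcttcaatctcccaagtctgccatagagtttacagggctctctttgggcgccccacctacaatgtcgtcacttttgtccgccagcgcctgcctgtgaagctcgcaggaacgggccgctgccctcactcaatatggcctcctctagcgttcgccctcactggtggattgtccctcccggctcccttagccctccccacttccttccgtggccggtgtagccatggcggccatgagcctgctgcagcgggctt
Ndufv1: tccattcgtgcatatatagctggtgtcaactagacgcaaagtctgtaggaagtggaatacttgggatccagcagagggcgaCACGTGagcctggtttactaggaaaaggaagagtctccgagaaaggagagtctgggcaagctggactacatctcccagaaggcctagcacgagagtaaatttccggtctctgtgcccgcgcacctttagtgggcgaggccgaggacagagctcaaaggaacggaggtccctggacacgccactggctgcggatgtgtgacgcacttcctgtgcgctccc

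Ndufs3 held CCGGAAG or its reverse complement at 2 places, beginning 27 bases before and 1 base after the start. Ndufs7 held AAGATGG 24 bases after the start, Ndufb5 held none of the strings, and Ndufv1 held CACGTG 169 bases before the start. Of the 37 members, 33 had a window in the table. AAGATGG was found in the windows of 7 members (21.2%, against 6.34% of all 32851 windows), GCATGCG in 3 (9.09% against 3.58%), AAGGTCA in 3 (9.09% against 4.72%) and CCGGAAG in 4 (12.1% against 8.86%). ACGTG was found in 6 (18.2% against 19.6%) and CACGTG in 2 (6.06% against 7.15%). These are counts of letters in a window and not binding sites.

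Levels between members were compared as CPM per kilobase of the principal transcript over all 63 mice. Ndufb9, a distal arm subunit, stood highest at 414 ± 81.7 CPM per kilobase (SD, n = 63), followed by Ndufa4 at 333 ± 105 and Ndufb8 at 290.0 ± 72.4. Ndufb9 exceeded Ndufa4 in 54 of 63 mice and Ndufa4 exceeded Ndufb8 in 53. At the low end stood Ndufs5 at 33.01 ± 9.11, Ndufb4 at 28.9 ± 7.33, Ndufb2 at 13.7 ± 2.48 and the mitochondrial acyl carrier protein gene Ndufab1 at 9.06 ± 1.47 CPM per kilobase. The lower 2 of these rest on long principal transcripts (4371 bp for Ndufb2 and 3479 bp for Ndufab1, against a median of 908 bp over the members), so their order depends on which transcript is counted. The 37 members together held 4831 ± 852 CPM (SD, n = 63), between 3506 and 7274 in single mice.

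The members rose and fell together from mouse to mouse. Over the 63 libraries, which differ in depth and rRNA content and in each of which all members were read together, the 666 pairs of members had a median Pearson r of 0.67 in log2 CPM, with a range of -0.49 to 0.94. Ndufb5, Ndufb8 and Ndufa6 followed the mean of the other members most closely (r of 0.96, 0.95 and 0.94), and Ndufs6, Ndufs5 and Ndufa5 least (r of 0.00090, 0.29 and 0.36). Ndufs6, a zinc-binding accessory subunit of the N module, overlaps Mrpl36. Among genes outside the list, the 10 most like the members' mean by r were Uqcr11, Prdx5, Atp5f1, Fh1, Atp5c1, Atp5g1, Atp5j2, Fitm1, Grpel1 and Cox4i1, with r from 0.92 to 0.96 over the same libraries.

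**Figure D1:**
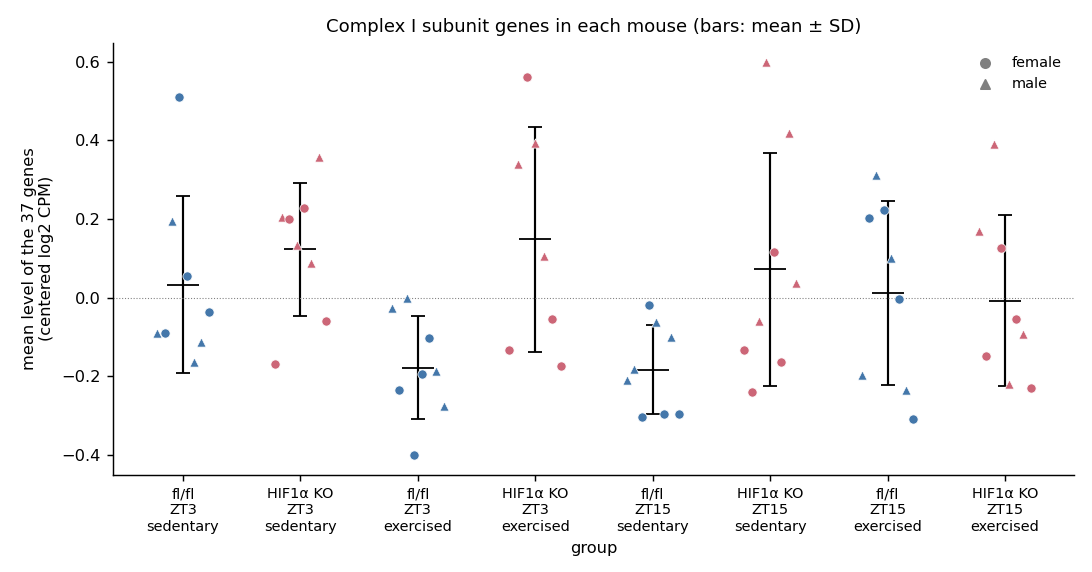
Mean level of the 37 members in each mouse (mean over members of centered log2 CPM) by group, with circles for females, triangles for males, and the group mean ± SD. The fl/fl groups ZT15 sedentary and ZT3 exercised sit lowest (means of -0.18 each), and every group overlaps every other.

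The study asked whether muscle without HIF1α differs in its transcripts, and the comparison of HIF1α KO with fl/fl averaged over the 4 pairings of ZT with treatment addresses this for complex I. All 37 members were higher in HIF1α KO muscle, and 14 rose past an adjusted p of 0.1 with none lower (edgeR quasi-likelihood test, Benjamini-Hochberg adjustment over 15241 genes, of which 8.26% were called in either direction). The changes were small: the median over members was 0.16 on the log2 scale, an increase of 11.9%, against a median of -0.0028 over all genes tested. At an unadjusted p of 0.05, 28 members passed (75.7%, against 20.4% of all genes). Because the members rose and fell together from mouse to mouse, these counts are not made of independent members. The direction of the members' median was the same under each scaling tried. In bulk muscle, a larger share of fibers rich in mitochondria and more RNA per fiber cannot be told apart.

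The Q module, which carries electrons to ubiquinone, held the members that changed with the smallest p. Ndufs3, a core subunit of that module (ENSMUSG00000005510.9, chromosome 2, 90894634 to 90904827 on GRCm38, minus strand), gave in fl/fl mice a lowest, median and highest CPM of 77.6, 88.0 and 133 at ZT3 sedentary, 63.5, 76.7 and 87.1 at ZT3 exercised, 67.5, 73.0 and 93.9 at ZT15 sedentary, and 69.3, 88.3 and 114 at ZT15 exercised. In HIF1α KO mice the same 3 values were 81.2, 94.6 and 132 at ZT3 sedentary, 83.1, 92.8 and 144 at ZT3 exercised, 79.9, 90.0 and 134 at ZT15 sedentary, and 75.1, 89.6 and 129.5 at ZT15 exercised. The genotypes overlapped in each combination, least at ZT3 after exercise, where 1 fl/fl and 2 HIF1α KO mice lay in the shared range. Over all mice, 28 of 31 HIF1α KO mice lay above the fl/fl median, and Ndufs3 rose by 0.25 on the log2 scale (SE 0.058, adjusted p = 0.00449, edgeR), from 83.2 ± 15.1 (SD, n = 32) to 98.5 ± 18.7 CPM (SD, n = 31).

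Ndufs7, which holds the iron-sulfur cluster next to ubiquinone (ENSMUSG00000020153.14, chromosome 10, 80249121 to 80256794, plus strand), gave a lowest, median and highest CPM in fl/fl mice of 97.8, 105 and 149.8 at ZT3 sedentary, 84.3, 99.3 and 112 at ZT3 exercised, 65.001, 92.7 and 116 at ZT15 sedentary, and 83.5, 113 and 140.2 at ZT15 exercised. In HIF1α KO mice they were 102, 123 and 147 at ZT3 sedentary, 102, 124 and 173 at ZT3 exercised, 89.0, 115 and 156 at ZT15 sedentary, and 77.5, 108 and 158 at ZT15 exercised. At ZT15 after exercise the HIF1α KO median was the lower of the pair, and in the other 3 combinations it was the higher. Ndufs7 rose by 0.23 on the log2 scale (SE 0.059, adjusted p = 0.0127, edgeR), with 26 of 31 HIF1α KO mice above the fl/fl median. Ndufs8, a core subunit of the same module that carries a pair of iron-sulfur clusters, rose by 0.25 (adjusted p = 0.0226). Ndufa9, an accessory subunit with a bound nucleotide, rose by 0.16 (adjusted p = 0.0974), so 4 of 6 genes of the module were called, with a median log2 fold change of 0.19.

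In the N module, 4 of 10 genes were called, and the median was 0.18. Ndufv1, which binds NADH and its flavin, rose by 0.19 on the log2 scale (SE 0.051, adjusted p = 0.0215), from 236 ± 36.1 CPM (SD, n = 32) to 268 ± 42.2 (SD, n = 31). Its partner Ndufv2 rose by 0.23 (adjusted p = 0.0608), and the accessory genes Ndufa12 and Ndufa6 rose by 0.28 (adjusted p = 0.0284) and 0.19 (adjusted p = 0.0886). Ndufs1, the largest core subunit with several iron-sulfur clusters, stood 0.14 higher without passing (adjusted p = 0.134). The lowest values of all members were in this module as well: Ndufs4, whose loss is a cause of complex I deficiency in humans and mice, at 0.041 (adjusted p = 0.781) and Ndufs6 at 0.047 (adjusted p = 0.695). Of the 7 core members 5 were called, with a median of 0.23, and of the 30 other members, Ndufa4 included, 9, with a median of 0.16.

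In the distal membrane arm, 4 of 11 genes were called (median 0.16). Ndufb5 led them (ENSMUSG00000027673.12, chromosome 3, 32736990 to 32751566, plus strand), with a lowest, median and highest CPM in fl/fl mice of 149.9, 179 and 314 at ZT3 sedentary, 120.3, 158 and 198 at ZT3 exercised, 121, 151 and 175 at ZT15 sedentary, and 135, 176 and 231 at ZT15 exercised. In HIF1α KO mice they were 157, 223 and 253 at ZT3 sedentary, 144, 213 and 326 at ZT3 exercised, 153, 191 and 339.7 at ZT15 sedentary, and 149, 168 and 261 at ZT15 exercised. The highest fl/fl value belongs to mouse 22 and the highest HIF1α KO value to mouse 25, and the genotypes overlapped in every combination. Ndufb5 rose by 0.28 on the log2 scale (SE 0.075, adjusted p = 0.0169, edgeR), the largest log2 fold change of the members, and Ndufb8, Ndufb6 and Ndufb7 rose by 0.24, 0.20 and 0.12 (adjusted p = 0.0443, 0.0571 and 0.0977).

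In the proximal membrane arm, 2 of 9 genes were called (median 0.14): Ndufa10, an accessory subunit related to nucleoside kinases, at 0.15 (adjusted p = 0.0822) and Ndufa8 at 0.14 (adjusted p = 0.0904). Ndufa4 gave 0.21 (adjusted p = 0.233). Without mice 22 and 25, 18 members were called in place of 14, including 13 of the 14.

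**Figure D2:**
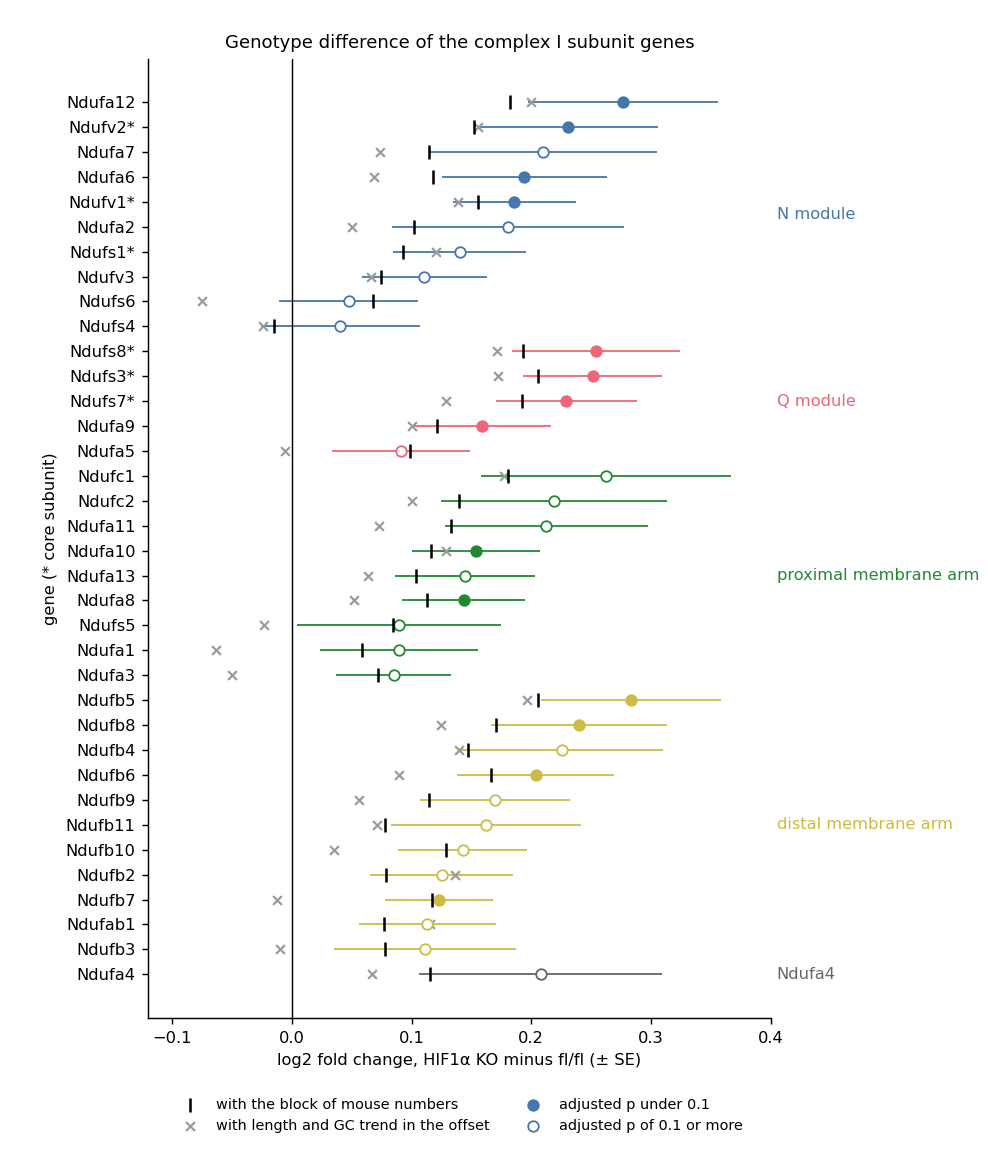
Log2 fold change (HIF1α KO over fl/fl, averaged over the 4 combinations) of 36 members with its standard error, by module, with core members starred. Filled points passed an adjusted p of 0.1, black ticks give the fit with blocks of mouse numbers, and grey crosses the fit corrected for transcript length and GC, under which Ndufs6 lies lowest at -0.075.

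Ndufs3 passed in each of the 14 alternative fits, and the other 13 called members each lost their call in at least 1. With total counts in place of TMM as the scaling, Ndufs3 alone passed, while the median over members remained at 0.16. With a block term for each 16 consecutive mouse numbers, the median was 0.12, with 36 of 37 higher, and 11 members were called, 10 of them among the 14. With a trend on transcript length and GC content in the offset, the median was 0.074, with 29 of 37 higher, and 6 were called, 5 of them among the 14: Ndufs3, Ndufb5, Ndufs8, Ndufa12 and Ndufv2.

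Member transcripts are short, and short transcripts as a class stood higher in HIF1α KO libraries. Over all tested genes the median log2 fold change was 0.087 for principal transcripts up to 1 kb, 0.045 from 1 to 2 kb, 0.0058 from 2 to 3 kb, and -0.040 above 4 kb. The members lay above their class, with medians of 0.17 (21 members up to 1 kb) and 0.21 (12 members from 1 to 2 kb). In the fit with the length and GC trend given above, the members' median was 0.074, against 0.16 in the main fit. The part of transcript length apart from GC content was not tested.

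The members' level also went with the mitochondrial rRNA share and with the mouse numbers. Over 63 mice the mean level had a Pearson r of -0.75 with the log2 rRNA share, a description of libraries in which both quantities are parts of the same total. Mouse numbers 17 to 32 had the highest members' level (mean 0.26) and the lowest median rRNA share (1.84%), and numbers 49 to 64 and 1 to 16 had levels of -0.15 and -0.13 with shares of 5.13% and 6.55%. The labels do not say what the numbers stand for. HIF1α KO mice made up 10 of 16 in numbers 17 to 32 and 7 in each other block. Within the 4 blocks, in order of number, the members' median log2 fold change was 0.16, 0.055, 0.053 and 0.14, with 34, 30, 26 and 33 of 37 higher and 0, 0, 0 and 1 called, where 0%, 0.535%, 0% and 0.933% of all genes were called. With the log2 rRNA share as a covariate, the median over all mice was 0.12 and 12 members were called, all of them among the 14.

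**Figure D3:**
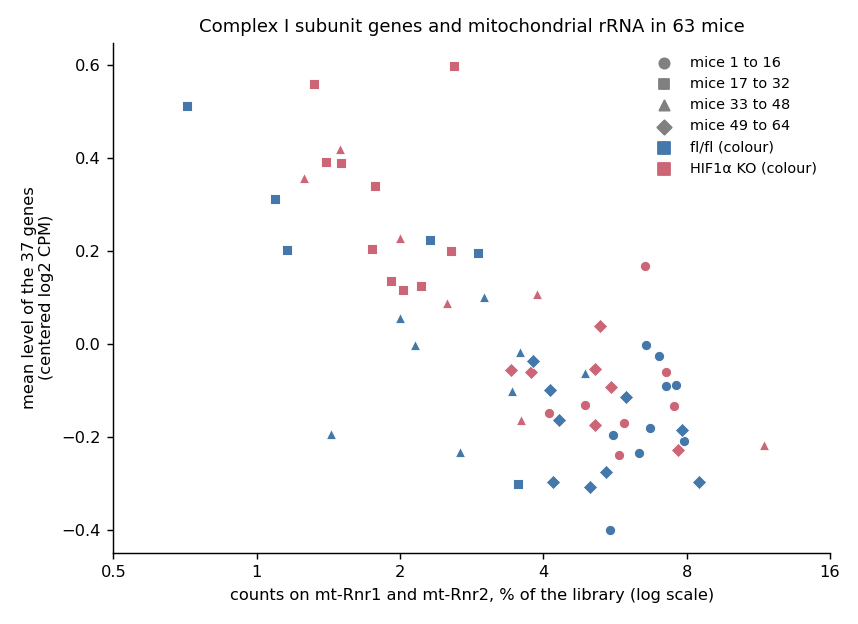
Mean level of the 37 members (centered log2 CPM) against the percentage of counts on mt-Rnr1 and mt-Rnr2 (log axis), 1 point per mouse, with the marker for the block of mouse numbers and the color for the genotype. Levels fall as the rRNA share rises, and 15 of the 16 mice numbered 17 to 32 lie above 0, with mouse 17 at -0.30 and 3.54% the exception.

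Other genes of the complex differed by group. Of 20 assembly factors all were higher in HIF1α KO muscle (median 0.11), and 5 were called: Ndufaf6 (0.26), Ndufaf3 (0.22), Ndufaf1 (0.20), the import factor Chchd4 (0.16) and Acad9 (0.15). Of the 7 mitochondrially encoded subunits 5 were tested, 1 was higher and none called (median -0.11, from -0.34 for mt-Nd2), and 0 passed an unadjusted p of 0.05. Of 13 regulators of mitochondrial genes, Tfam, which packages and transcribes mitochondrial DNA, was called (0.16, adjusted p = 0.0841), and the median was -0.0043. The share of called regulators was near that over all genes (8.26%). Ndufa4l2, the hypoxia-induced relative of Ndufa4, differed by -0.022 (SE 0.12, adjusted p = 0.947, edgeR). Its level was low, with means of 3.99 CPM in fl/fl and 3.88 CPM in HIF1α KO mice, so a small difference could be missed. The nuclear subunits of complexes II to V gave 40 higher of 41 tested and 24 called (median 0.19). Fiber, slow-fiber, blood and adipocyte markers had no called member. The nerve marker Mbp, which encodes myelin basic protein, was lower (-0.44, SE 0.13, adjusted p = 0.0338, from 15.5 to 72.03 CPM in fl/fl and 14.3 to 60.3 CPM in HIF1α KO), as were 1 of 3 fibroblast markers (summed CPM of 620 to 1467 and 638 to 1503) and 1 of 2 smooth muscle markers (28.3 to 94.96 and 30.0 to 95.5). The part of these cells in the members' difference was not tested.

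Split by time of day and treatment, the genotype difference passed the threshold in members in 1 of the 4 combinations, at ZT3 after exercise. There 4 members rose, with 36 of 37 higher and a median of 0.33 (background 1.43%): Ndufs3 at 0.53 (SE 0.12, adjusted p = 0.0243), Ndufs7 at 0.45 and Ndufb6 at 0.50 (both adjusted p = 0.0695), and Ndufb8 at 0.51 (adjusted p = 0.0982). Ndufb6, a small membrane arm subunit, ran from 31.5 through a median of 39.6 to 51.01 CPM in fl/fl mice, whereas HIF1α KO mice spanned 46.1 to 83.2 CPM with a median of 49.1, and the groups overlapped between 46.1 and 51.01. At an unadjusted p of 0.05, 28 members passed. Here and below, background is the share of all genes tested that were called at an adjusted p under 0.1. It is not the share that belongs to counts at an unadjusted p, which is given for the genotype average alone. Ndufs3 remained the only call with the blocks of mouse numbers (0.38, adjusted p = 0.0827), where the median fell to 0.17, and likewise with the length and GC trend, with the rRNA share, without the sex term and with no filter on low counts. No member was called with total counts as the scaling, 9 were called with DESeq2, and 12 were called without mice 22 and 25. Those mice are in neither group compared here, but they enter the shared estimate of the spread and the sex term.

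In the other combinations no member was called by edgeR or DESeq2. The counts at an unadjusted p in this paragraph cannot be set against the background beside them. At ZT15 sedentary all 37 were higher, with a median of 0.28 (background 0.0459%) and 20 at an unadjusted p of 0.05, led by Ndufv1 at 0.33 (adjusted p = 0.324) and Ndufb6 at 0.41 (adjusted p = 0.360). Without mice 22 and 25 that median was 0.17. At ZT3 sedentary 33 were higher, with a median of 0.070 (background 0.4%), 0 at an unadjusted p of 0.05, and Ndufa13 (0.18, adjusted p = 0.860) and Ndufa12 (0.23, adjusted p = 0.866) first by p, and the median was 0.15 without those mice, 0.012 with the blocks, 0.020 with the length and GC trend and 0.0014 with the rRNA share as a covariate. At ZT15 exercised 15 were higher, with a median of -0.012 (background 0.4%), 0 at an unadjusted p of 0.05, and Ndufs4 at -0.20 (adjusted p = 0.813) and Ndufa13 at -0.14 (adjusted p = 0.857) first. The median there turned to 0.17 with the rRNA share, 0.083 with the blocks and 0.024 with the length and GC trend, and was -0.18 with total counts as the scaling.

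Whether these combinations differ from each other was tested with interaction terms, and no member passed in any of them by edgeR or DESeq2. The background of 0% in these terms is at an adjusted p under 0.1, so the counts at an unadjusted p cannot be set against it. The genotype difference after exercise was larger at ZT3 than at ZT15 by a median of 0.39 (background 0%, 17 members at an unadjusted p of 0.05), led by Ndufs3 at 0.52 and Ndufa13 at 0.49 (both adjusted p = 0.232). With the rRNA share as a covariate that median was -0.0085. In sedentary mice the median was -0.21 (background 0%, 1 at an unadjusted p of 0.05), with Ndufb6 at -0.49 and Ndufs4 at -0.36 (both adjusted p = 1.00), and without mice 22 and 25 it was -0.0080. The genotype difference with exercise against without was larger by a median of 0.26 at ZT3 (background 0%, 3 at an unadjusted p of 0.05, Ndufb6 at 0.58 and Ndufs3 at 0.41, both adjusted p = 0.855) and lower by a median of -0.32 at ZT15 (background 0%, 10 at an unadjusted p of 0.05, Ndufs4 at -0.46 and Ndufa2 at -0.66, both adjusted p = 0.545). The difference between these last terms had a median of 0.56 (background 0%, 22 at an unadjusted p of 0.05), with Ndufb6 at 0.99 and Ndufs3 at 0.74 (both adjusted p = 0.262).

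**Figure D4:**
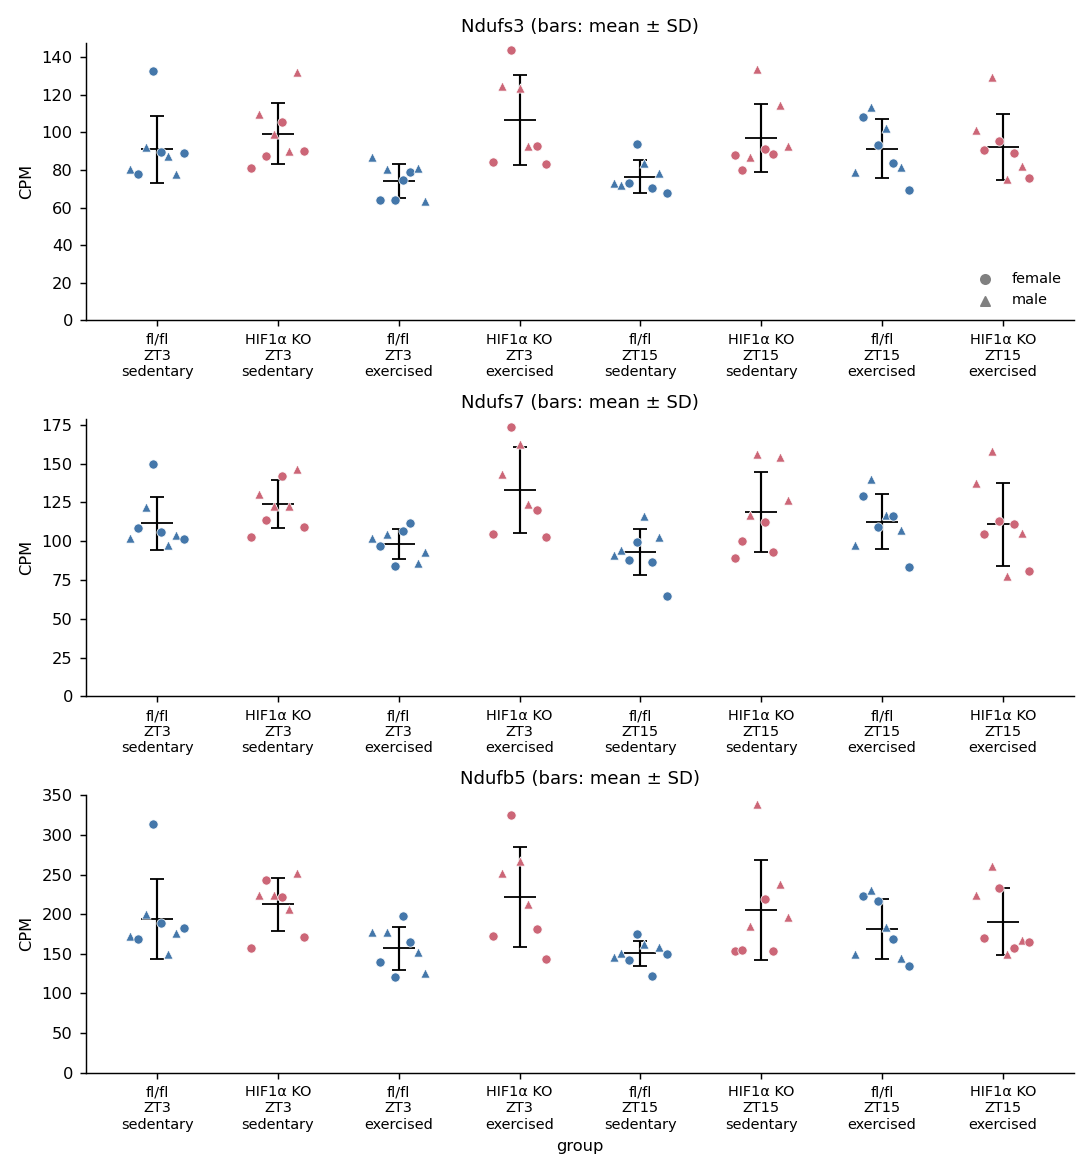
CPM of Ndufs3, Ndufs7 and Ndufb5 in every mouse by group, with group means ± SD. The highest fl/fl point for each gene at ZT3 sedentary is mouse 22 (133, 149.8 and 314 CPM).

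Time of day, named by the time of the run and not of collection, changed no member past the threshold in any of the 4 settings. Again the background is at an adjusted p and does not belong to the counts at an unadjusted p. In sedentary fl/fl mice 35 of 37 were lower at ZT15 than at ZT3 (median -0.24, background 1.88%, 16 at an unadjusted p of 0.05), with Ndufb6 at -0.41 (adjusted p = 0.115) and Ndufa2 at -0.53 (adjusted p = 0.177) first. DESeq2 called Ndufb6 alone there, the block fit called 6 members, all lower, and without mice 22 and 25 the median was -0.13. In exercised fl/fl mice 36 were higher at ZT15 (median 0.20, background 1.18%, 7 at an unadjusted p of 0.05), led by Ndufs3 at 0.31 (adjusted p = 0.256) and Ndufb11 at 0.38 (adjusted p = 0.308), and the median was -0.021 with the rRNA share as a covariate. HIF1α KO mice gave medians of -0.036 when sedentary (0.068 with the rRNA share and 0.016 with the blocks, background 0.479%, 0 at an unadjusted p of 0.05, Ndufa13 at -0.11 and Ndufab1 at 0.099, both adjusted p = 1.00) and -0.19 after exercise (background 0.663%, 1 at an unadjusted p of 0.05, Ndufs7 at -0.27 with adjusted p = 0.414 and Ndufa13 at -0.23 with adjusted p = 0.483). DESeq2 called no member in the last 3 settings.

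Exercise 3 h earlier likewise moved no member past the threshold with edgeR. As above, counts at an unadjusted p cannot be compared with the background. In fl/fl mice at ZT3, 36 of 37 were lower after the run (median -0.21, background 0.236%, 12 at an unadjusted p of 0.05), with Ndufb6 at -0.48 (adjusted p = 0.145) and Ndufa4 at -0.61 (adjusted p = 0.226) first, DESeq2 called 1 member lower, and the median without mice 22 and 25 was -0.11. In fl/fl mice at ZT15, all 37 were higher (median 0.23, background 0%, 10 at an unadjusted p of 0.05), with Ndufb7 at 0.23 (adjusted p = 0.481) and Ndufs7 at 0.28 (adjusted p = 0.4996) first, and the median with the rRNA share as a covariate was 0.0032. In HIF1α KO mice the medians were 0.049 at ZT3 (background 0.131%, 1 at an unadjusted p of 0.05, Ndufa8 at 0.22 with adjusted p = 0.947 and Ndufab1 at 0.18 with adjusted p = 1.00) and -0.077 at ZT15 (background 0.0591%, 0 at an unadjusted p of 0.05, Ndufb6 at -0.23 with adjusted p = 0.914 and Ndufs4 at -0.22 with adjusted p = 0.926). DESeq2 called none of the members in these last 3. The comparisons share groups: the sedentary fl/fl mice at ZT3 stand in a genotype, a time and an exercise comparison at once.

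**Figure D5:**
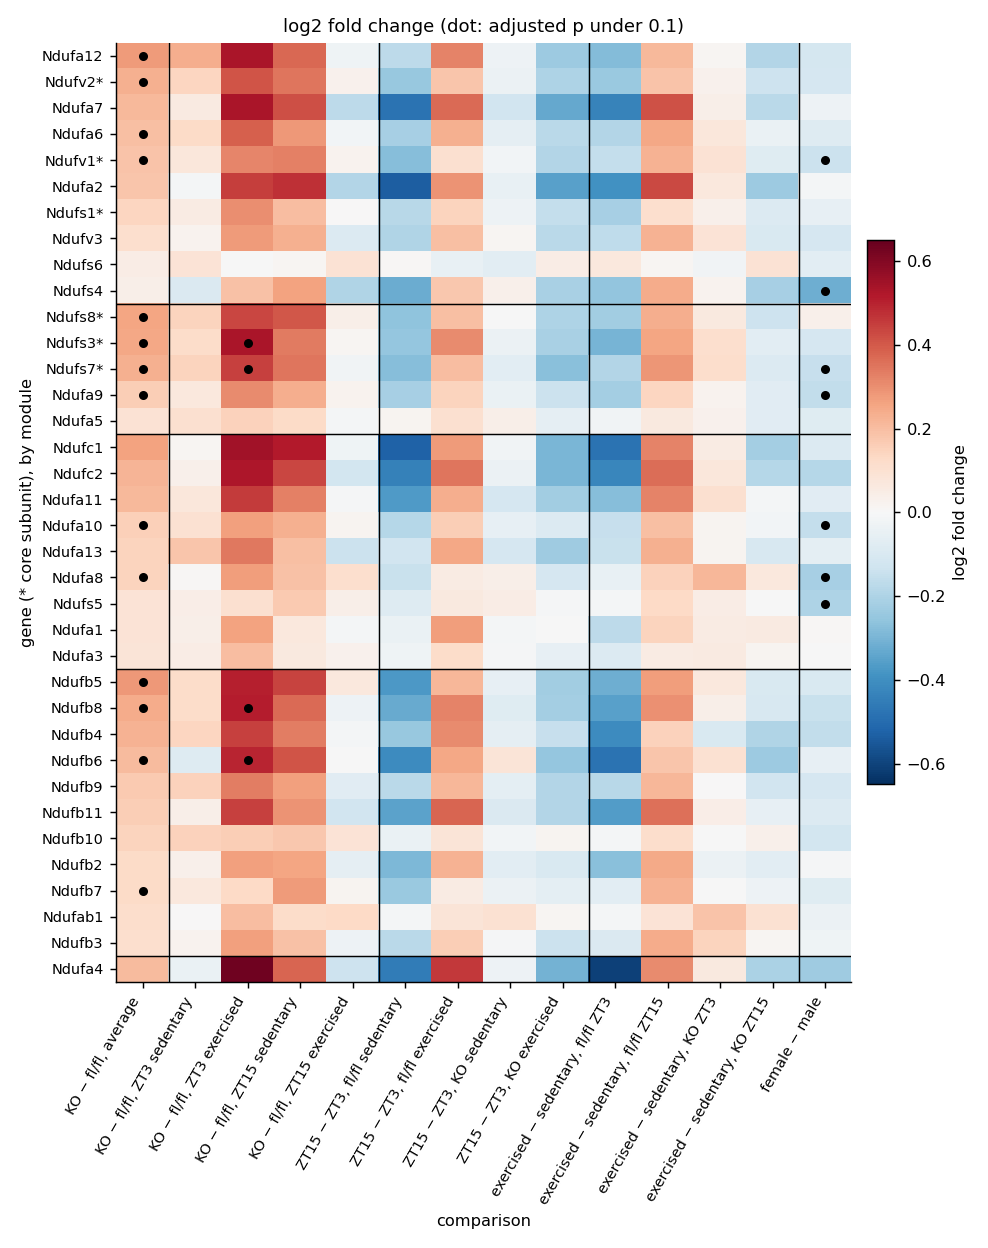
Log2 fold changes of 36 members (rows, by module) in 14 comparisons (columns), in color from lower to higher, with a dot where the adjusted p was under 0.1. Dots stand in the genotype average (14), the genotype difference at ZT3 after exercise (4) and the female to male difference (7).

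Sex was a term of the same model, and 8 members were lower in females and none higher (35 of 37 lower, median -0.099, background 25.1%). Among them Ndufs4 fell by 0.32 on the log2 scale (adjusted p = 0.000205) and Ndufa8 fell by 0.22 (adjusted p = 0.00101). Smaller differences passed in Ndufa10 (-0.16, adjusted p = 0.0295), Ndufa9 (-0.16, adjusted p = 0.0415), Ndufv1 (-0.14, adjusted p = 0.0471), Ndufs7 (-0.15, adjusted p = 0.0600) and Ndufs5 (-0.20, adjusted p = 0.0880). With the blocks of mouse numbers 14 members were called, with the rRNA share 21, without mice 22 and 25 12, and with total counts as the scaling 3, all lower in females. The share of called members (8 of 37) was near or below the share over all genes. All 8 slow-fiber markers were higher in females (median 0.86, summed CPM of 721 to 4181 against 397 to 1943 in males), as were 4 of 4 adipocyte markers tested (25.7 to 122 against 12.9 to 110.1), and their part in the members' difference was not tested. With the slow-fiber score as a covariate, the members' median was -0.15. Among the 13 regulators, Esrra, which encodes an estrogen-related receptor that drives mitochondrial genes, was lower in females (-0.25, adjusted p = 0.000193, edgeR). Nrip1 (-0.23, adjusted p = 0.0161) and Nrf1 (-0.13, adjusted p = 0.0369) were lower as well, and the other regulators did not pass. The share of called regulators, like that of the members, was near or below the share over all genes (25.1%). The part of the regulators in the members' difference was not tested.

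A model with genotype by sex, added after the data were seen, gave the larger genotype differences in males, although the difference between the sexes itself passed in no member. All 37 members were higher in HIF1α KO than fl/fl males, and 28 rose (median 0.29, background 14.4%). They included all 7 core members, among them Ndufs3 at 0.36 (adjusted p = 0.00521), Ndufs8 at 0.41 (adjusted p = 0.00710), Ndufs7 at 0.35 (adjusted p = 0.00734), Ndufv2 at 0.40 (adjusted p = 0.0126), Ndufv1 at 0.28 (adjusted p = 0.0144) and Ndufs1 at 0.28 (adjusted p = 0.0228). Ndufb5 rose by 0.45 (adjusted p = 0.00521), and by module 7 of 10 genes rose in the N module, 5 of 6 in the Q module, 6 of 9 in the proximal arm and 9 of 11 in the distal arm. In females 35 of 37 were higher with a median of 0.058 (background 0.912%), none was called by edgeR or DESeq2 and 0 passed an unadjusted p of 0.05, with Ndufs3 at 0.15 (adjusted p = 0.731) and Ndufa12 at 0.17 (adjusted p = 0.803) first.

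Single mice are given for Ndufs4, chosen after its values were seen for its difference between the sexes. The lowest, median and highest CPM of Ndufs4 were 87.8, 108 and 147 in fl/fl males, 81.6, 121 and 173 in HIF1α KO males, 66.4, 92.7 and 154 in fl/fl females, and 71.8, 83.2 and 139 in HIF1α KO females. Of 15 HIF1α KO males 11 lay above the median of fl/fl males, and of 16 HIF1α KO females 5 lay above that of fl/fl females, while all groups overlapped. For the mean level of all members, the same counts were 14 of 15 males and 8 of 16 females. The difference between the sexes itself did not pass in any member by edgeR or DESeq2: the median of the female minus male genotype difference was -0.23, with 35 of 37 lower (background 0.0459%) and 12 at an unadjusted p of 0.05, with Ndufa10 at -0.27 (adjusted p = 0.424). That median was -0.078 with the blocks and -0.028 with the rRNA share. The count of 12 at an unadjusted p cannot be set against the background of 0.0459%, which is at an adjusted p.

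Seen the other way, HIF1α KO females were lower than HIF1α KO males in 16 members (36 of 37 lower, median -0.22, background 15.1%), among them Ndufs4 at -0.42 (adjusted p = 0.00103) and Ndufa10 at -0.29 (adjusted p = 0.00423). In fl/fl mice no member differed between the sexes past the threshold with edgeR (median -0.0017, background 16.4%, none with DESeq2), with Ndufs4 at -0.22 (adjusted p = 0.125) and Ndufa8 at -0.15 (adjusted p = 0.180) first. At an unadjusted p of 0.05, to which that background does not belong, 2 members passed there. The rRNA share moved with this split: its median was 5.51% in fl/fl males and 2.51% in HIF1α KO males, against 3.56% and 3.94% in females. With that share as a covariate, 9 members were called lower in females among fl/fl mice and 11 among HIF1α KO mice, and with the blocks 3 and 8 were called. With the same covariate, the median genotype difference was 0.15 in males, with 4 members called (Ndufs3, Ndufb5, Ndufs8 and Ndufs7), and 0.10 in females, with Ndufs3 called. With the blocks of mouse numbers it was 0.15 in males, with 5 called, and 0.086 in females, with none. HIF1α KO males made up 6 of 16 mice in numbers 17 to 32 and fl/fl males 2, so block, sex and genotype were unevenly spread.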

How the data were processed

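Muscle RNA was prepared with a stranded poly-A kit and sequenced paired-end at 52 bp. The authors used STAR for alignment to mm10 and featureCounts to assign reads to genes, and deposited the resulting whole-number counts, neither normalized nor filtered. Tool versions, annotation, strand setting and the treatment of shared reads are not given in the sources used here. The share of counts on the mitochondrial rRNAs differed widely between libraries and was a covariate in an alternative.

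From these counts, gene symbols were matched without identifier versions to GENCODE M21 (55141 of 55401), and coordinates are on GRCm38, 1-based. Groups, sexes and mouse numbers came from the labels. Replicates are separate mice, and the 217 pairs within groups all differed by more than counting noise (smallest chi-square per degree of freedom 3.60). Genes were filtered with filterByExpr (minimum count 10, 15241 tested), scaled by TMM and fitted in edgeR 4.0.16 on R 4.3.3 with robust quasi-likelihood models of group plus sex over 63 libraries. Adjustment (Benjamini-Hochberg) was within each of 24 comparisons, and an adjusted p under 0.1, the study's threshold, counted as called. Standard errors were the log2 fold change divided by the square root of F, and CPM used TMM-scaled totals. The model was tested on simulated data with known changes. Before the TMM scaling, 1 CPM equals 2.36 counts in the shallowest library.

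The members, the lists and the tests were chosen with earlier results of these data known. Named with values were core members, called members (at most 20 a comparison, or otherwise the 2 with the smallest p) and the 2 lowest in the genotype average, with values by group for the 3 smallest p. Other members were named as extremes of level or correlation, Ndufb6 at ZT3 as a called member, and Ndufs4 by sex after its values were seen. The values of 1 member and of 1 marker gene are not reported here. Alternatives were DESeq2 1.42.0, other scalings and count filters, all 64 libraries, libraries of at least 5000000 counts, only the groups compared, no sex term, a block for each 16 mouse numbers, a length and GC offset, slow-fiber or rRNA covariates, single sexes and blocks, and an adjusted p of 0.05. Leaving out mice 22 and 25, and the genotype-by-sex model with its alternatives, were added after the data were seen. Motif strings were searched on both strands of RefSeq promoter windows, and no protein sequences were used here.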

Additional observations from a re-analysis of the deposited data

Results flagged for a closer look

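The 3 members with values by group were examined in each of the 8 groups for a mouse far from the others, together with the members' mean level, which made 32 groups of values, of which 4 were flagged. Chance flags about 1 in 20 groups. In fl/fl mice at ZT3 sedentary, mouse 22, a female, stood at 133 CPM for Ndufs3 (the next mouse at 92.1), at 149.8 CPM for Ndufs7 (next 122) and at 314 CPM for Ndufb5 (next 200.3). In HIF1α KO mice at ZT15 sedentary, mouse 25, a male, stood at 339.7 CPM for Ndufb5 (next 238). Members correlate across mice, so the flags of mouse 22 are not independent of each other. Both mice are in the block of numbers 17 to 32. Without them, 12 members in place of 4 were called in the genotype difference at ZT3 after exercise. Neither mouse belongs to the groups of that comparison, which shares the estimate of the spread and the sex term with all other libraries.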

How the results depend on the processing

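Each result was recomputed under up to 20 alternatives, and the cause of the moves below was not tested. No paired analysis was possible because each mouse number belongs to 1 mouse and no number is shared between groups. The blocks of 16 consecutive numbers, which the labels do not explain, were used as a term in the model and do not pair mice.

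In the genotype average the 14 called members became 9 with all 64 libraries, 6 with only genes without any count removed, 6 with the length and GC trend, 9 without the sex term, 1 with total counts as scaling and 7 at an adjusted p of 0.05. Other counts lay between 11 and 18. Ndufs4 turned to -0.015 with the blocks, -0.024 with the length and GC trend and -0.0096 with the rRNA share, and Ndufb7 and Ndufs6 to -0.013 and -0.075 with the length and GC trend. At ZT3 after exercise the 4 calls became 9 with DESeq2, 7 with genes of at least 10 counts in every library, 12 without mice 22 and 25, 0 with total counts, and 1 with the least strict count filter, with the blocks, with the length and GC trend, with the rRNA share, without the sex term and at an adjusted p of 0.05. At ZT15 after exercise Ndufs4 and Ndufa13 turned to 0.016 and 0.032 with the rRNA share.

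For time of day in sedentary fl/fl mice, the 0 calls became 1 with DESeq2, 6 with the blocks, 1 with only the groups compared and 4 with total counts, all lower, and for exercise in fl/fl mice at ZT3, 1 with DESeq2. With the rRNA share, the members' median moved to -0.021 for time in exercised fl/fl mice, 0.0032 for exercise in fl/fl mice at ZT15, -0.0085 for genotype by time after exercise, -0.018 for genotype by exercise at ZT15 and 0.18 for the term of all 3 factors. With the blocks it moved to 0.080 for genotype by time after exercise and 0.29 for the term of all 3 factors, and with total counts to 0.67, -0.58 and 0.96 for genotype by time after exercise, genotype by exercise at ZT15 and the term of all 3 factors. Total counts also moved the median of all genes, by up to 0.37 for the last of these, -0.18 for time in sedentary fl/fl mice and -0.17 for genotype at ZT15 after exercise, where the members lay -0.0065 from it.

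For females against males the 8 calls became 14 with the blocks, 21 with the rRNA share and 3 with total counts. In the added model, calls in males (28) became 5 with the blocks, 14 with the length and GC trend and 4 with the rRNA share, those in females (0) 1 with the rRNA share, those between sexes in fl/fl mice (0) 3 with the blocks, 3 with the length and GC trend and 9 with the rRNA share, and those in HIF1α KO mice (16) 8 with the blocks and 10 without libraries under 5000000 counts. The remaining 292 counts under alternatives stayed within 1.5 times of their reported value. Most of them were 0 calls that stayed at 0, so this says little about comparisons with calls. Other medians moved by less than the SD between mice (0.22), which exceeds many of the medians, so this is no sign of stability: the genotype average ran from 0.053 within mice 33 to 48 to 0.29 within males, ZT3 sedentary from 0.0014 to 0.15, and ZT15 exercised from -0.18 to 0.17. Differences of a few percent are near the limit of this design, and a member that did not pass is not shown to be alike between groups.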
